A study of Mus musculus with 2 samples.

Results

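The genes described here are 34 genes of the erythroid and megakaryocyte lineages, chosen by name from textbook roles: 17 of red cells (erythroid), 8 of haem synthesis and 9 of megakaryocytes and platelets. The choice was made with earlier results of these data known. The genes were found by matching the gene name of each non-control spot, and 31 of the 34 were on the array, out of 27337 genes. For 3 of the names, Hbb-b2 and Tubb1 among them, the arrays had no spot, so 15 erythroid, 8 haem and 8 platelet genes remained. They were read by 41 probes, with 1 probe for each of 24 genes and several for 7. Where a gene had several, the probe brighter on average stood for it.

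Gene expression was measured on 2 one-colour Agilent arrays, 1 with Jam3-null and 1 with wild-type (WT) cells. Both held RNA of leukemia-initiating cells (LICs) from mice with acute myeloid leukaemia (AML) that carried the fusion oncogene MLL-AF9 marked with YFP (the labels do not say how it was introduced), and both were sorted from the bone marrow of females as Mac-1+ c-Kit+ cells. Mac-1 is a myeloid integrin and c-Kit the receptor of stem cell factor, while Jam3 encodes a junctional adhesion molecule of the cell surface. The label of each array names 3 mice, whose ages, and whether their RNA was mixed in equal parts, are not given in the sources used here. With 1 array per genotype there is no replicate check, no test and no p-value, and every difference below compares these 2 arrays. Jam3 itself was on neither array well above background, with signals of 28.1 in Jam3-null cells and 5.09 in WT cells, so it did not check the labels. Kit had processed signals of 1237 in Jam3-null cells and 1244 in WT cells, and Itgam, which encodes a chain of Mac-1, had 3703 in Jam3-null cells and 302 in WT cells.

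Red cells and platelets arise from a shared progenitor in the bone marrow. The transcription factor GATA1 and its cofactor FOG1, encoded by Zfpm1, act in both lineages, and KLF1, which binds CACCC boxes, acts in the erythroid one. Maturing erythroblasts make globin chains and haem together, with ALAS2 as the erythroid enzyme at the start of haem synthesis, while ALAS1 does the same step in other cells. Megakaryocytes display the glycoprotein receptors with which platelets bind von Willebrand factor and collagen. Neither lineage is what the sort for Mac-1 and c-Kit was directed at.

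The globin probes are printed here because mouse globin genes are near-identical copies, and what a probe can tell apart depends on a few bases. The Hba-a1 probe lies at chr11:32183775-32183956 (mm9, plus strand), and its 60 bases span 182 bases of the genome, so that the match is interrupted there. The files give no position for the Hba-a2 probe. The 2 alpha-globin probes overlap by 30 bases, of which 27 are identical, and capitals mark the 3 that differ.
Hba-a1 probe: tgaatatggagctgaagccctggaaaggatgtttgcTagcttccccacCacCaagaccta
Hba-a2 probe: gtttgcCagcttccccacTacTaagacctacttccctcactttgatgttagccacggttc
Of the 4 Hbb-b1 probes, 3 are printed next, all on the minus strand of mm9, where 29 bases shared by a pair of them are in capitals. They lie at chr7:110962317-110962376, chr7:110962000-110962059 and chr7:110962031-110962090, in the order printed. RefSeq now names the transcript of these probes Hbb-bt, and cross-hybridization between the beta-globin copies was not tested.
Hbb-b1 probe 1: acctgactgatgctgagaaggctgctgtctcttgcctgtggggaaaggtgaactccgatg
Hbb-b1 probe 2: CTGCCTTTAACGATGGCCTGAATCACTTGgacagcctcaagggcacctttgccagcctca
Hbb-b1 probe 3: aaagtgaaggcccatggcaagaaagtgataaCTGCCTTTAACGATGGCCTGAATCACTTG

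The 250 bases before the start of 4 genes are printed as well, from RefSeq on GRCm38.p6, as examples from the erythroid and haem genes described below: both globins and Alas2 were higher on the Jam3-null array and Zfpm1 was lower. Capitals mark GATA motifs (AGATAA or TGATAA) and CACCC motifs, searched on both strands, so that TTATCT and GGGTG are the same motifs on the other strand.
Hba-a1 (chr11:32283422-32283671, plus strand): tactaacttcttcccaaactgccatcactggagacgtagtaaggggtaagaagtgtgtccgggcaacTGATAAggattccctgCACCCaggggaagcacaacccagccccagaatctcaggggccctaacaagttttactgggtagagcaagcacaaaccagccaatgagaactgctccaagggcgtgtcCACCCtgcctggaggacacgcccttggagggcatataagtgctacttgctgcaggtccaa
Hbb-bt (chr7:103813924-103814173, minus strand): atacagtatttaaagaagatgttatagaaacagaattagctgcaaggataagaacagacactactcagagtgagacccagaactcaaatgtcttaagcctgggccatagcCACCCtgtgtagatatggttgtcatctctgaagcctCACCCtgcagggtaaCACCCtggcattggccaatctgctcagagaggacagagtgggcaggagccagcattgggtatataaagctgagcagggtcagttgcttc
Alas2 (chrX:150547167-150547416, plus strand): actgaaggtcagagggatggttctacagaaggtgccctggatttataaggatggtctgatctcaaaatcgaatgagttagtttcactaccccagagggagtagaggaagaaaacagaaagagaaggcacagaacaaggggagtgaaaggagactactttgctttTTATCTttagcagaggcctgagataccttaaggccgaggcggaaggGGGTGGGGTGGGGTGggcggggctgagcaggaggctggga
Zfpm1 (chr8:122281891-122282140, plus strand): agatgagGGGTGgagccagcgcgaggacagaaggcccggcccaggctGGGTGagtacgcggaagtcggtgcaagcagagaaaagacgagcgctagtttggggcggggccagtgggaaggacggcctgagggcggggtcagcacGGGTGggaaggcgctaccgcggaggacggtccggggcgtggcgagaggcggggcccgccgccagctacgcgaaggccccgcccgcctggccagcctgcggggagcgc
The Hba-a1 window held 1 GATA and 2 CACCC motifs, the Hbb-bt window 0 and 3, the Alas2 window 1 and 3, and the Zfpm1 window 0 and 3. Windows were found for 9 erythroid genes (10 windows, since a gene can have several starts), 7 haem genes (10 windows) and 8 platelet genes, Tubb1 included (8 windows). A GATA motif was in 5 erythroid, 3 haem and 3 platelet windows, against 16.6% of all 32841 windows of this length. CACCC was in 9 erythroid, 5 haem and 6 platelet windows, against 52.0% of all windows. The NF-E2 core TGAGTCA was in 0 erythroid, 0 haem and 1 platelet window, that of F2r, against 4.46% of all windows. A match describes these letters and is not a site.

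On these arrays the adult globins, the globin chaperone Ahsp, Alas2 and the platelet genes Gp9, Vwf and Gp6 had higher signals in Jam3-null cells. Zfpm1, Rhd, Gata1 and the platelet genes Treml1 and F2r had lower ones, and the haem enzymes other than Alas2 differed by less than 2-fold. Processed signals are background-subtracted intensities in arbitrary units, and the 2 signals of a gene are given unscaled. All differences are on the log2 scale, Jam3-null minus WT, with each array divided by its 75th percentile (667.8 in Jam3-null cells and 713.9 in WT cells), so a positive value means higher in Jam3-null cells. Of the 31 genes, 20 were well above background on both arrays and gave a difference, and 4 were well above it on neither, which is called below background from here on. Another 4 passed that limit in Jam3-null cells alone and 3 in WT cells alone. For these 7 a bound is given: the bright signal against the higher of the dim array's lowest signal well above background and the probe's own signal there. That lowest signal was 25.9 in Jam3-null cells and 15.4 in WT cells, so a dim gene passes more easily on the WT array. It is not a sharp limit, since Jam3 at 28.1 in Jam3-null cells did not pass, so the bounds are approximate.

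Of the 20 genes with a difference, 4 were higher in Jam3-null cells by 2-fold or more, beside 10.3% of all 14361 genes measured on both. In the other direction 2 of the 20 were lower by 2-fold or more, beside 8.59% of all measured genes. The other 14 lay between. All 4 genes seen on the Jam3-null array only had a bound of at least 2-fold higher, but so did 97.0% of the 466 such genes on the array, so this count says nothing particular about them. Of the 3 genes seen on the WT array only, all with a bound, 0 had a bound of at least 2-fold lower. Of all 2439 such genes, 384 (15.7%) had one, but only 1258 of the 2439 had any bound. The SD of a log2 difference in the scanner software's error model was 0.20 to 0.35 for the 20 genes, with a median of 0.20 over all measured genes. It covers measurement on the array and leaves out the spread between leukaemias, animals and labelling reactions.

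**Figure D1:**
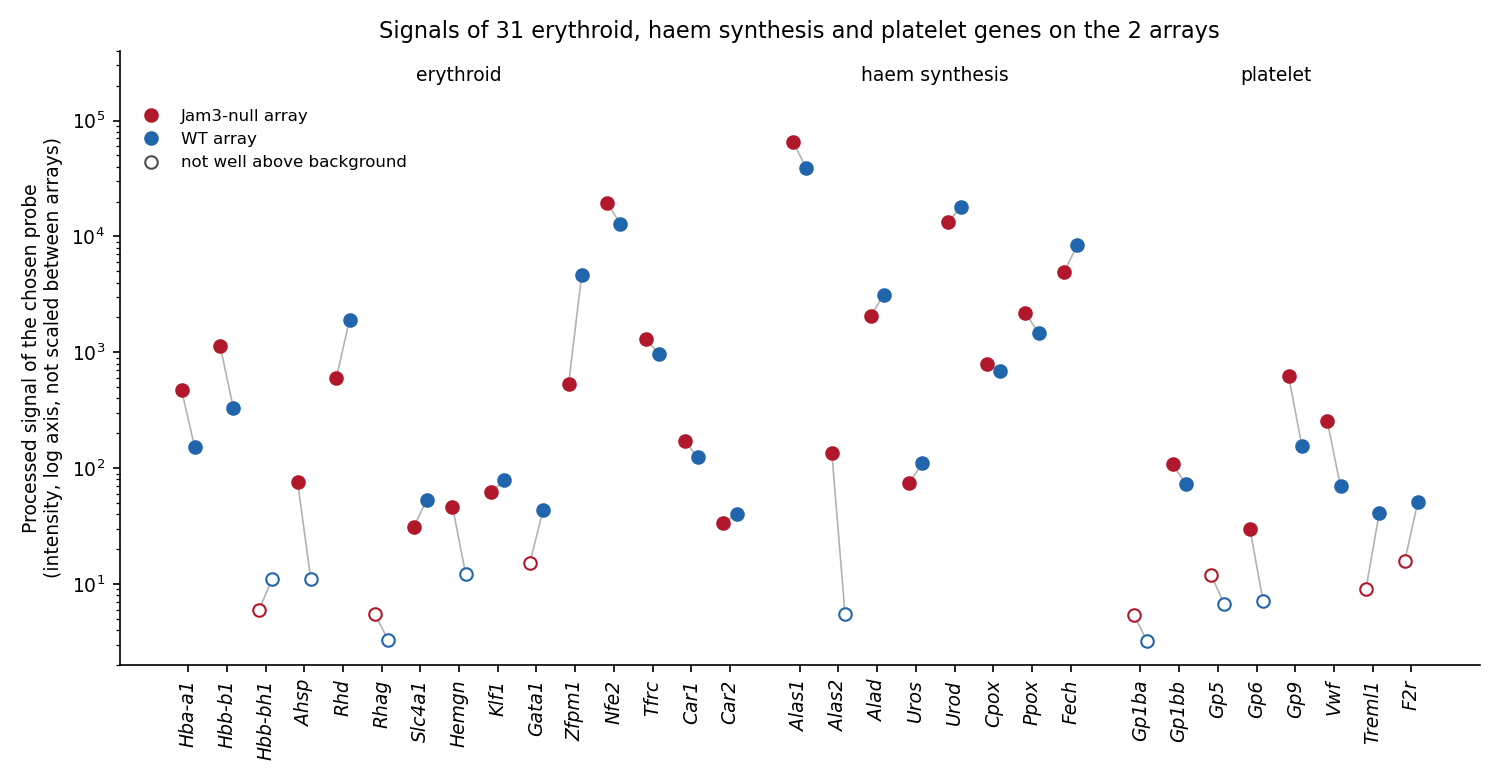
Processed signal of each of the 31 genes (intensity in arbitrary units, log axis, not scaled between arrays) on the Jam3-null array (red) and the WT array (blue), with a grey line joining the 2 values of a gene and open circles for signals not well above background. Among the haem genes the points of a gene sit close together except for Alas2, at 135.7 in Jam3-null cells and 5.52 in WT cells.

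Both adult globins were higher in Jam3-null cells. Hba-a1, an alpha-globin gene, gave a processed signal of 472 in Jam3-null cells and 152 in WT cells. That is a log2 difference of 1.73 ± 0.21 (error-model SD), or 3.31-fold higher, and 623 of the 14361 measured genes had a larger positive difference. The Hba-a2 probe, which overlaps it by 30 bases with the 3 differences marked above, had 393 in Jam3-null cells and 159.9 in WT cells, a difference of 1.39. Both alpha-globin probes were therefore brighter on the Jam3-null array, although neither signal can be assigned with certainty to its own copy.

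Hbb-b1, a beta-globin gene, was read by 4 probes, all higher in Jam3-null cells. The probe with the highest signal (chr7:110961112-110961171, mm9, minus strand) had 1131 in Jam3-null cells and 329 in WT cells, a difference of 1.88 ± 0.20 or 3.68-fold. In the order printed above, the other 3 probes had log2 differences of 1.24, 1.96 and 2.01. The 4 probes share a target transcript and the same labelled samples and so are not independent readings. Among them, only printed probes 2 and 3 share a marked stretch, of 29 bases. The range from 1.24 to 2.01 shows how far probes of 1 gene can part on the same arrays. In sorted bulk RNA, fewer cells of a type and less RNA per cell cannot be told apart.

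The embryonic globins were at or near background. Hbb-bh1 was on neither array well above background, at 5.93 in Jam3-null cells and 11.1 in WT cells, and its second probe was below background too. Hbb-y, another embryonic beta-like globin, was close to the background limit, with 27.4 in Jam3-null cells and 27.1 in WT cells and a difference of 0.11. The embryonic Hba-x and the theta-like Hbq1a were below background on both arrays. Hbq1b, also theta-like, had 27.9 in Jam3-null cells and 31.6 in WT cells, well above background in WT cells alone.

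Ahsp encodes the chaperone that holds free alpha-globin until it pairs with a beta chain. Its signal was 75.7 in Jam3-null cells and 11.0 in WT cells, where it was not well above background. Ahsp was therefore at least 5.24-fold higher in Jam3-null cells, a bound that shrank to 1.83-fold after normexp background correction, an alternative that adds 50 to every signal. Hemgn, a nuclear protein of blood-forming cells, had 46.7 in Jam3-null cells and 12.3 in WT cells, below background there, and was at least 3.23-fold higher (1.57-fold after normexp). The other 2 Hemgn probes were below background on both arrays, so this bound rests on 1 probe.

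Among the chosen genes of the red cell membrane found on the array, Rhd was lower in Jam3-null cells, Slc4a1 was dim and Rhag was not seen. Rhd, which encodes the Rh protein of the red cell surface, had 602 in Jam3-null cells and 1907 in WT cells (chr4:134452018-134452077, mm9, plus strand). Its difference of -1.57 ± 0.20 corresponds to a 2.96-fold lower signal in Jam3-null cells. Slc4a1, the anion exchanger of the red cell membrane, was dim, at 31.1 in Jam3-null cells and 53.6 in WT cells, with a difference of -0.69 ± 0.34 that shrank to -0.18 after normexp. Rhag, the partner of the Rh protein in the membrane, was below background on both arrays.

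The erythroid transcription factors differed from each other. Zfpm1, the GATA1 cofactor FOG1, had 536 in Jam3-null cells and 4692 in WT cells (chr8:124861053-124861112, mm9, plus strand). It was 8.19-fold lower in Jam3-null cells, a log2 difference of -3.03 ± 0.20, and 78 of all measured genes had a more negative value. Of the 20 genes measured on both arrays it had the largest difference in either direction. Nfe2, a subunit of the NF-E2 factor that acts on globin and platelet genes, had 19529 in Jam3-null cells and 12794 in WT cells, a difference of 0.71 ± 0.20. Klf1 had 62.9 in Jam3-null cells and 78.7 in WT cells, and its difference of -0.23 ± 0.24 was within the error model's SD.

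Gata1 was read by 1 probe in 10 spots (chrX:7536849-7536908, mm9, minus strand), which gives a view of the error within an array. Over the 8 spots without an outlier mark on either array, signals ran from 13.4 to 17.9 (median 14.7) in Jam3-null cells and from 39.7 to 51.6 (median 43.8) in WT cells. The spots of the 2 arrays did not overlap, and 0 of 8 were well above background in Jam3-null cells against 8 of 8 in WT cells. The lowest signal that passed on the Jam3-null array was 25.9. Against it, the bound is only at least 1.57-fold lower in Jam3-null cells, and 1.14-fold after normexp. Repeat spots share 1 labelled sample, so their spread is technical.

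Tfrc, the transferrin receptor through which erythroblasts and dividing cells take up iron, also had 10 spots. They ran from 1268 to 1360 in Jam3-null cells and from 919 to 989 in WT cells. All 10 spots were higher on the Jam3-null array, with a mean log2 difference of 0.55 and an SD over spots of 0.03. The carbonic anhydrases of red cells were split: Car1 had 171 in Jam3-null cells and 124 in WT cells, a difference of 0.56 ± 0.21. Car2 had 33.3 in Jam3-null cells and 40.4 in WT cells, a difference of -0.18 ± 0.35, within the error model's SD, and its sign turned under cyclic loess normalization (0.01).

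**Figure D2:**
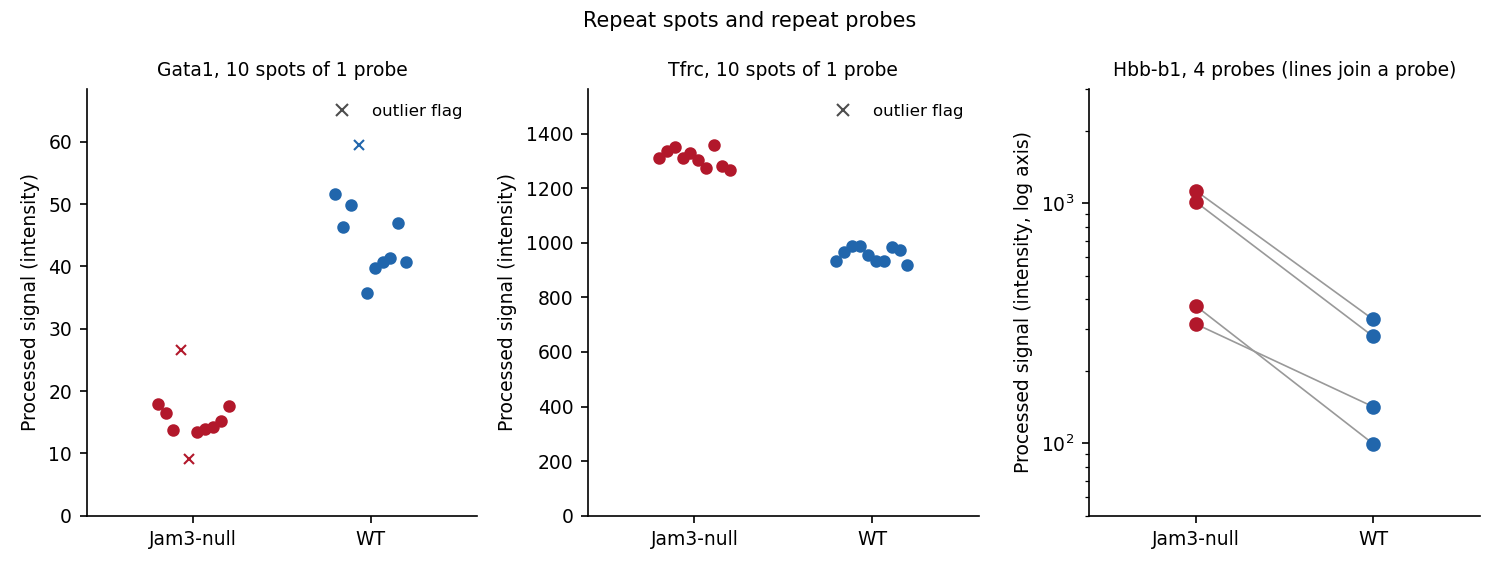
Processed signals (intensity in arbitrary units) of the 10 spots of the Gata1 probe and of the Tfrc probe (linear axes from 0) and of the 4 Hbb-b1 probes (log axis), with the Jam3-null array left and the WT array right in each panel. Crosses are spots with an outlier mark and lines join the 2 values of a probe; Gata1 spots are lower and Tfrc spots and Hbb-b1 probes higher on the Jam3-null array.

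Over the 10 erythroid genes measured on both arrays, Hba-a1 and Hbb-b1 made up the 2 that passed 2-fold upward, Rhd and Zfpm1 the 2 that passed it downward, and the signs were split 5 to 5. Their median difference was 0.18, beside -0.07 for all 14361 measured genes, and 0.55 with Ahsp, Hemgn and Gata1 at their bounds.

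A wider list of 27 other erythroid genes, all on the array, was split as well. Of these, 12 were measured on both arrays, 1 was seen in Jam3-null cells alone and 1 in WT cells alone. Another 12 were below background on both, and for Ank1 the probes differed in status. The gene seen in Jam3-null cells alone was Aqp1, the water channel of the red cell membrane, named after its values were seen. It had 54.2 in Jam3-null cells and 3.52 in WT cells, at least 3.75-fold higher, or 1.85-fold after normexp. Among the 12 measured genes, 1 passed 2-fold upward and 3 downward, with a median of 0.02, beside the same 10.3% and 8.59% of all measured genes. The higher gene was Xk, a membrane protein linked to the Kell blood group protein, at 387 in Jam3-null cells and 131 in WT cells (1.66).

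The lower genes were Gfi1b, Icam4 and Gypc. Gfi1b, a transcriptional repressor needed for red cells and platelets, had 74.9 in Jam3-null cells and 761 in WT cells, 9.50-fold lower (5.50-fold after normexp). Icam4, an adhesion molecule of erythroid cells, had 38.3 in Jam3-null cells and 328 in WT cells, 8.02-fold lower (3.41-fold after normexp). Gypc, glycophorin C of the membrane skeleton, had 812 in Jam3-null cells and 2058 in WT cells, a difference of -1.25. Lmo2, an adaptor in erythroid transcription complexes, differed by 0.10. Tal1, the factor it bridges to, was below background on both arrays. Epor, the erythropoietin receptor, was at 19.5 on the Jam3-null array, below background, and at 27.8 on the WT array.

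Alas2 stood apart among the haem genes. It had 135.7 in Jam3-null cells and 5.52 in WT cells (chrX:147004993-147005052, mm9, plus strand), where it was below background. This put Alas2 at least 9.40-fold higher in Jam3-null cells, or at least 3.18-fold after normexp. Alas1, the form of other cells, had 65268 in Jam3-null cells and 38857 in WT cells, a difference of 0.84 ± 0.20, and its other probe gave 0.86. Alas1 was thus 1.80-fold higher, and it passed 2-fold under cyclic loess (1.10) and under quantile normalization.

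The enzymes after ALAS, in the order of the pathway, showed smaller differences in both directions. Alad, which joins the product of ALAS into a pyrrole ring, had 2038 in Jam3-null cells and 3146 in WT cells, a difference of -0.53 ± 0.20. Uros, which closes the tetrapyrrole ring, had 74.8 in Jam3-null cells and 110.5 in WT cells. Its difference was -0.47 ± 0.24, and -0.24 after normexp.

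Urod, which trims its side chains, had 13269 in Jam3-null cells and 18000.2 in WT cells, a difference of -0.34 ± 0.20. The cytosolic enzymes Alad, Uros and Urod were thus all lower in Jam3-null cells by less than 2-fold. Of the 3 mitochondrial enzymes that follow, Cpox had 795 in Jam3-null cells and 693 in WT cells, a difference of 0.29 ± 0.20. Ppox had 2192 in Jam3-null cells and 1461 in WT cells, a difference of 0.68 ± 0.20. These oxidases of the porphyrin ring were higher, whereas Fech, which inserts the iron, was lower. It had 4958 in Jam3-null cells and 8396 in WT cells, a difference of -0.66 ± 0.20, and its other probe gave -0.65.

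Of the 7 haem genes measured on both arrays, 0 passed 2-fold in either direction. Their median difference was -0.34, beside -0.07 for all measured genes, and it was -0.025 with Alas2 at its bound. A further 20 genes of haem and iron handling had a median of -0.18 over the 19 measured on both arrays, with 2 past 2-fold upward and 1 downward, beside 10.3% and 8.59% of all measured genes. Slc40a1, ferroportin, the iron exporter, had 3759 in Jam3-null cells and 61.2 in WT cells. It was 65.7-fold higher (33.0-fold after normexp), and 14 of all measured genes had a larger positive difference. Hmox1, which breaks down haem, had 1098 in Jam3-null cells and 417 in WT cells, a difference of 1.49. Abcg2, a transporter that can export porphyrins, had 45.1 in Jam3-null cells and 115 in WT cells, 2.39-fold lower (1.56-fold after normexp).

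**Figure D3:**
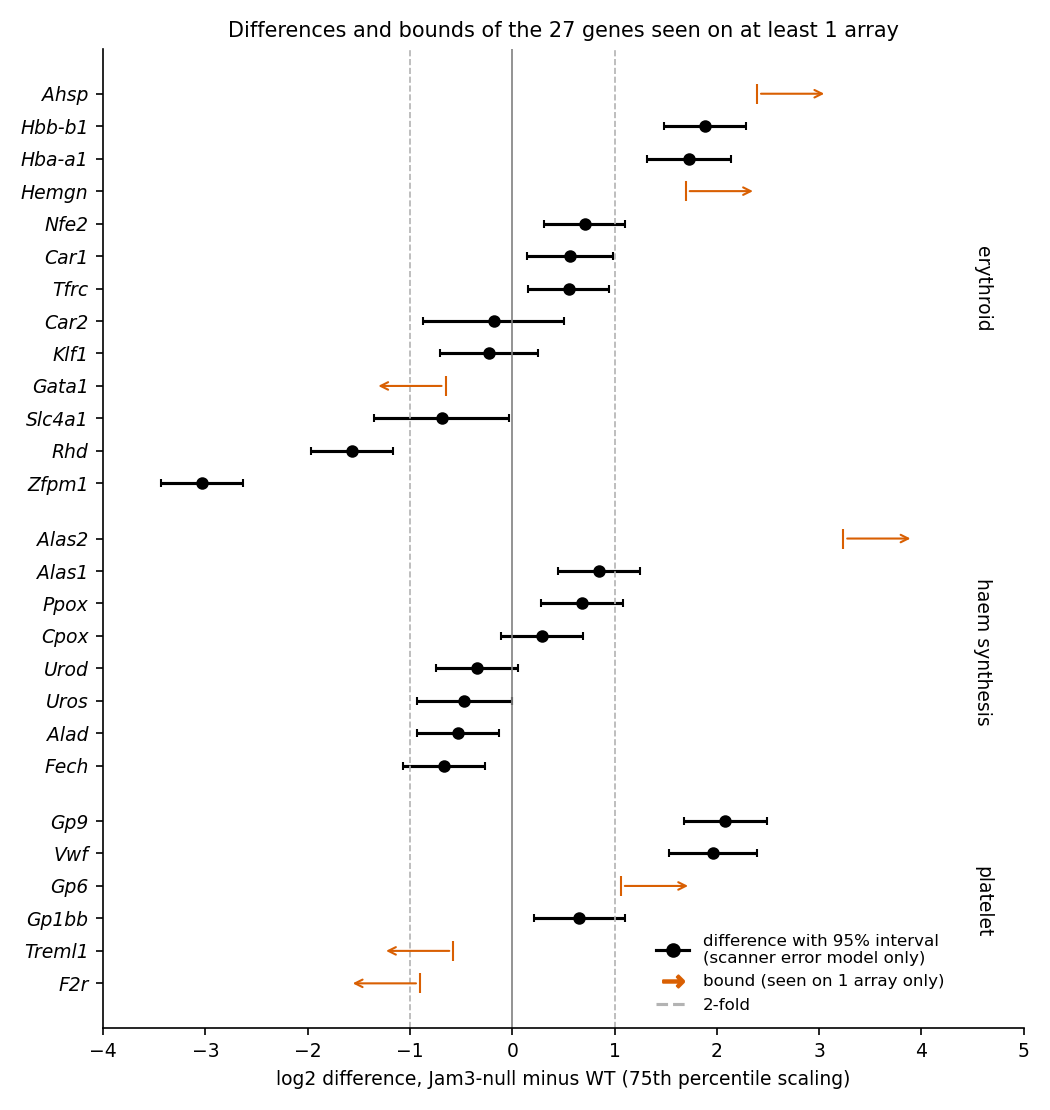
Log2 difference, Jam3-null minus WT, of the 20 genes measured on both arrays (points, with the 95% interval of the scanner software's error model) and bounds of the 7 genes seen on 1 array (ticks with arrows pointing away from 0, arrow lengths arbitrary), in 3 blocks by role. Dashed lines mark 2-fold; Zfpm1 (-3.03) and Rhd (-1.57) lie left of them, Hbb-b1, Hba-a1, Gp9 and Vwf right of them, and no haem difference lies outside them.

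The platelet genes measured on both arrays were Gp9, Vwf and Gp1bb, and all 3 were higher in Jam3-null cells. Gp9, a chain of the platelet receptor for von Willebrand factor, had 621 in Jam3-null cells and 157 in WT cells (chr6:87729650-87729709, mm9, plus strand). It was 4.23-fold higher, a difference of 2.08 ± 0.21. Vwf, the ligand of that receptor, made by megakaryocytes and endothelial cells, had 254 in Jam3-null cells and 69.6 in WT cells. Vwf was 3.89-fold higher (1.96 ± 0.22), or 2.49-fold after normexp. Its second probe, at 45.4 in Jam3-null cells and 8.51 in WT cells, was well above background in Jam3-null cells alone.

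Other chains of the same receptor did not show as clear a difference. Gp1bb had 108 in Jam3-null cells and 73.5 in WT cells, a difference of 0.65 ± 0.23 that shrank to 0.41 after normexp. Gp1ba, the chain that binds the ligand, was below background on both arrays, at 5.45 in Jam3-null cells and 3.24 in WT cells. Gp5 was below background on both as well, at 11.9 in Jam3-null cells and 6.71 in WT cells. The 4 chains of this receptor complex were thus read as 1 higher by more than 2-fold, 1 higher by less and 2 not seen.

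Gp6, the platelet collagen receptor, had 30.1 on the Jam3-null array, close to the lowest passing signal of 25.9 there, and 7.15 on the WT array. It was at least 2.08-fold higher in Jam3-null cells, or 1.47-fold after normexp. Treml1, a receptor of platelet granules, had 9.16 in Jam3-null cells and 41.2 in WT cells. This makes it at least 1.49-fold lower, or 1.11-fold after normexp. F2r, a thrombin receptor that acts on human platelets, had 15.9 in Jam3-null cells and 51.6 in WT cells. It was at least 1.87-fold lower, or 1.28-fold after normexp. Over the 3 measured platelet genes, 2 passed 2-fold upward and 0 downward. Their median was 1.96, and 0.86 with Gp6, Treml1 and F2r at their bounds, beside -0.07 for all measured genes.

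A wider list of 26 other platelet and megakaryocyte genes held differences in both directions. Of these, 15 were measured on both arrays, with 6 past 2-fold upward, 3 downward and a median of 0.74, beside 10.3% upward, 8.59% downward and a median of -0.07 over all measured genes. F5, coagulation factor V, had 1273 in Jam3-null cells and 72.5 in WT cells, 18.8-fold higher (9.95-fold after normexp). Cd9, a tetraspanin also found on other blood cells, had 5371 in Jam3-null cells and 700.3 in WT cells, a difference of 3.04. P2ry1, an ADP receptor, had 330.1 in Jam3-null cells and 72.1 in WT cells, 4.90-fold higher (3.15-fold after normexp). The other higher genes were Tbxas1, P2rx1 and Runx1, named after their values were seen, at 1.32, 1.21 and 1.19.

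The chains of the platelet fibrinogen receptor, by contrast, were lower in Jam3-null cells. Itga2b, an early megakaryocyte marker, had 5.79 on the Jam3-null array, below background, and 104 on the WT array. It was at least 3.75-fold lower, or 1.85-fold after normexp. Its partner Itgb3 had 725 in Jam3-null cells and 2491 in WT cells, a difference of -1.68. Pf4, a chemokine of platelet granules, had 7.29 in Jam3-null cells and 62.0 in WT cells, at least 2.24-fold lower, or 1.35-fold after normexp. In the opposite direction Thbs1, a thrombospondin of platelet granules named after its values were seen, had 126.5 in Jam3-null cells and 5.42 in WT cells, below background there, at least 8.77-fold higher, or 2.71-fold after normexp. The other lower genes were Plek and F13a1, named after their values were seen, 3.55-fold and 2.83-fold lower. Fli1, a transcription factor of megakaryocytes, differed by 0.74, and Ppbp, another platelet chemokine, was below background on both arrays.

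**Figure D4:**
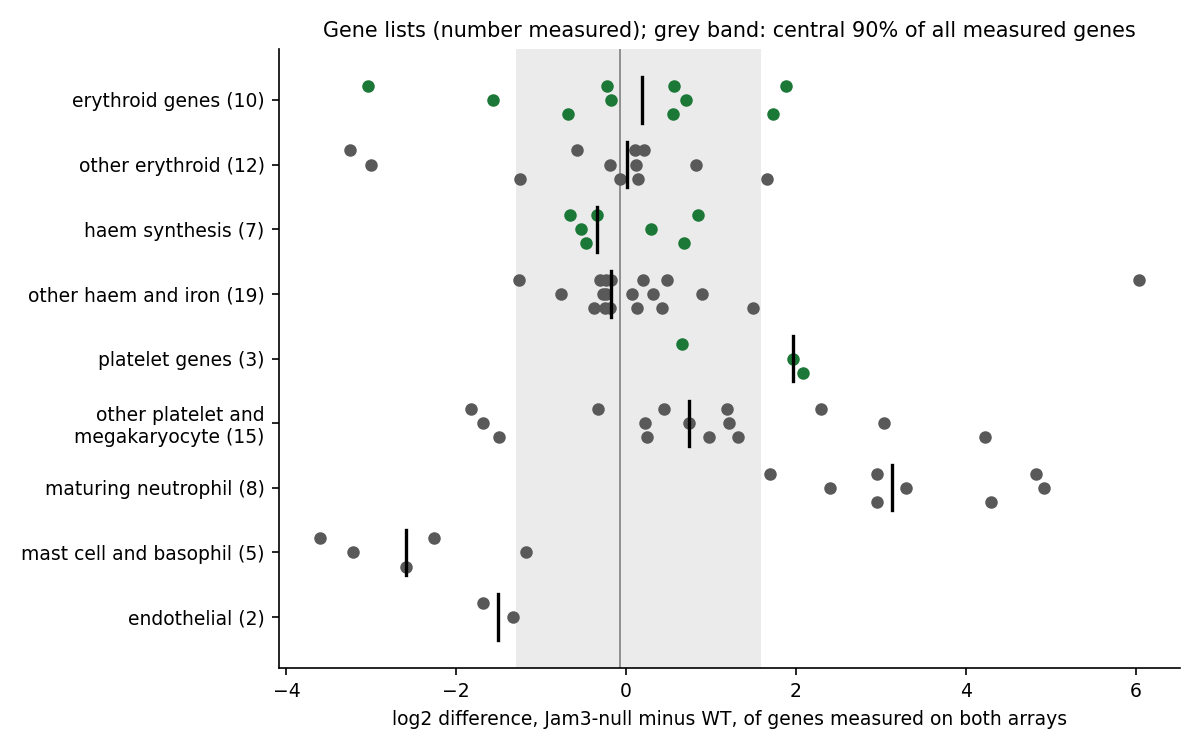
Log2 difference, Jam3-null minus WT, of each gene measured on both arrays, by list (number measured in brackets), with a black bar at each list's median, the erythroid, haem and platelet genes among the 34 in green and other lists in grey. The grey band holds the central 90% of all measured genes (-1.28 to 1.57) and the thin line their median (-0.07); erythroid genes lie on both sides of the band, the 7 haem genes inside it, and 2 of the 3 measured platelet genes above it.

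Markers of other cells that such a sort could hold moved too, and their part in these results was not tested. All 8 markers of maturing neutrophils were at least 2-fold higher in Jam3-null cells, by 1.70 to 4.92 in log2, with a median of 3.13. Their summed signal was 1000502 in Jam3-null cells and 176642 in WT cells. The largest differences were those of Camp (4.92), Ngp (4.83) and Lcn2 (4.30), all of neutrophil granules. Of 8 mast cell and basophil markers, 5 were measured on both arrays, and all 5 were at least 2-fold lower, with a median of -2.59. Their list summed to 5818 in Jam3-null cells and 34036 in WT cells. Cpa3, a mast cell protease, was at -3.60, and Prg2, a granule protein, at -2.59. Gata2, which is also a factor of early erythroid and megakaryocyte progenitors, had 309 in Jam3-null cells and 3064 in WT cells (-3.21). Fcer1a had 28.5 in Jam3-null cells and 21.7 in WT cells, so it passed only the lower limit of the WT array although its unscaled signal was brighter in Jam3-null cells. Tpsb2 had 11.8 in Jam3-null cells and 18.0 in WT cells, well above background in WT cells alone. Ms4a2 was below background on both arrays, at 12.7 in Jam3-null cells and 4.48 in WT cells.

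Endothelial cells also make Vwf. Of 8 endothelial markers, 2 were measured on both arrays, Pecam1 at -1.69 and Egfl7 at -1.33, and their list summed to 935 in Jam3-null cells and 2565 in WT cells. The defining markers Cdh5, Kdr, Tie1 and Emcn were below background on both arrays, and Tek and Esam were seen in WT cells alone. Of 6 B cell markers, 2 were measured on both arrays, with Cd79b at -0.44, and their list summed to 7838 in Jam3-null cells and 11359 in WT cells. Another 2 were seen in WT cells alone, with bounds under 2-fold, and 2 were below background on both arrays. Of 5 T cell markers on the array, 3 were measured, all within 0.25 of 0 (Cd4 at -0.25, Cd3g at -0.17 and Cd3e at -0.11). Cd3d was seen in Jam3-null cells alone, at 71.2 there and 13.3 in WT cells. It was at least 4.93-fold higher in Jam3-null cells, or 1.94-fold after normexp. The T cell list summed to 227 in Jam3-null cells and 172 in WT cells. Of the genes of the labelled population, Itgam was 3.71 higher in log2 in Jam3-null cells. Kit (0.09), Mpo (0.11), Ctsg (-0.10), Hoxa9 (0.73) and Meis1 (0.81) differed by less than 2-fold.

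Of the 13 genes that differed by 2-fold or more or had a bound, those with a difference kept their sign in all 7 alternatives. The alternatives changed background correction, scaling or probe choice. A bound cannot change sign by the way it is built, so its sign was no check and only its size could move. The arrays shared a slide and a scan, so neither separates the genotypes.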

How the data were processed

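Per the labels' protocols, the RNA was amplified from low input and carried the dye Cy3. The deposited intensities came from version 10.7.3.1 of Agilent Feature Extraction, per the file headers (10.7 per the submitters' processing notes). They were background-subtracted within each array and not scaled between arrays, per the file headers. The authors' value table holds deposited log2 values with the same median in both columns (5.66), and served as an alternative. Its sorted columns differ by at most 0.00038, so both hold nearly the same spread of values. It lies close to the quantile alternative (Hba-a1 at 1.67 under each), so these are not separate checks. Each array had 43379 non-control spots, of which 55.0% for Jam3-null and 61.8% for WT cells were well above background, and 0 were saturated.

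Spots with outlier marks were left out (151 for Jam3-null and 163 for WT cells), and spots of a probe were averaged. Signals were divided by the 75th percentile of their array, taken to log2 and compared for genes well above background on both arrays (14361 of 27337). Probes were named by RefSeq accession (27668), by an older symbol (471) or as in the file (13035), with the table of GRCm38.p6. Probe coordinates are mm9, per the array files. No test was possible with 1 array per genotype, and the error is that of the scanner software. The members and lists were chosen with earlier results of these data known. The chosen genes, a fixed set of further genes and the 3 largest measured differences of each list are named, except where a sentence says otherwise; a few of them are not reported here. Alternatives were normexp, median, quantile, cyclic loess and spike-in scaling (8 probes), the authors' table, the mean of probes, other filters, folds of 1.5 and 3, and genes at their bound. The gene-level step was tested on simulated data. R 4.3.3 with limma 3.58.1 and Python 3.11.15 were used.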

Additional observations from a re-analysis of the deposited data

How the results depend on the processing

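No paired analysis was possible because there was 1 array per genotype. Without a filter on dim probes, 2828 of all genes passed 2-fold upward and 2920 downward, with a median of 0.14. With the stricter filter the counts were 521 and 567, at a fold of 1.5 they were 2647 and 2917, and at a fold of 3 they were 709 and 421. Under cyclic loess the median of all measured genes was 0.058, against -0.07 with the main scaling. The stricter filter keeps only genes brighter on average than the median measured gene, and it dropped Hba-a1 and Hbb-b1. Of the erythroid genes, 4 were higher without the filter (median 0.55) and 0 with the stricter filter (median -0.51). At a fold of 3, 1 erythroid gene was lower. With genes at their bound the erythroid median was 0.55. Of the haem genes, 1 was higher under quantile normalization, 1 under cyclic loess and 1 without the filter, and at a fold of 1.5 there were 2 higher and 1 lower. The haem median was -0.025 without the filter and -0.025 with genes at their bound. With the stricter filter no platelet gene was left to count, because Gp9, Vwf and Gp1bb were all too dim for it. Without a filter 2 platelet genes were lower. The platelet median was 1.31 after normexp, 0.89 without the filter and 0.86 with genes at their bound.

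Of the other erythroid genes, 4 were higher and 5 lower without the filter, 0 higher and 1 lower with the stricter one, and 2 higher at a fold of 1.5. Of the other haem and iron genes, 0 were higher with the stricter filter and 1 at a fold of 3. In that list 0 were lower after normexp, 2 without the filter, 0 with the stricter filter, 2 at a fold of 1.5 and 0 at a fold of 3, and the median was 0.072 with the stricter filter. Of the other platelet and megakaryocyte genes, 1 was higher with the stricter filter, 3 at a fold of 3, and 6 were lower without the filter. Their median was 0.47 after normexp, -0.34 with the stricter filter and 0.35 with genes at their bound. The endothelial median turned to 0.35 without the filter, when genes below background on both arrays enter. Apart from the filters and bounds themselves, the cause of these shifts was not tested. Signal over background limits the dim genes: Slc4a1, Car2 and Gp6 lie near the limit on the Jam3-null array. Genes seen on 1 array were not well above background on the other, so their bounds depend on the limit there. On the Jam3-null array, where the lowest passing signal was 25.9, Alas2 (135.7) and Ahsp (75.7) lay further above it.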
